A study of Mus musculus with 95 samples.

Results

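The libraries compared were made from HPC-1 and HPC-2, 2 populations of mouse bone marrow progenitors, sorted at weeks 6, 8, 10, 13 and 16 of a transplant. They numbered 28 of the 95 libraries of the series, 15 of HPC-1 (3 at each week) and 13 of HPC-2 (3 at 6, 10 and 16 weeks and 2 at 8 and 13 weeks). Libraries were placed by their titles, of which 1 of HPC-1 reads 10k and was taken as 10 weeks. HPC-2 replicate 2 at 8 weeks, which had the profile of HPC-1, and HPC-2 replicate 1 at 13 weeks, which had nearly the counts of a steady-state library of stem cells (HSC), were left out. Both populations came from B6.SJL mice with a labelled age of 8 to 12 weeks, which had received 900 cGy of irradiation and 8000 Lin-Sca1+Kit+ (LSK) cells. The labels do not say whether the sorted cells descended from the donor or the host. They give the stem cell gate, CD48-CD150+, for every population, and do not say whether each library had its own mouse, so the p-values given cover variation among libraries, which may be technical. RNA was copied with SMART-Seq v4, a method for small amounts of RNA, and sequenced in bulk.

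HPC-1 and HPC-2 are commonly defined among LSK cells by a pair of receptors of the SLAM family. Both carry CD48, and HPC-2 also carries CD150, the product of Slamf1, which HPC-1 lacks. HPC-1 is known as a pool of multipotent progenitors that lean to the lymphoid and myeloid lineages, and HPC-2 as a pool that leans to the megakaryocyte and erythroid lineages. Such leaning, or priming, is seen as low expression of lineage genes before a cell commits. GATA2 and GATA1 are transcription factors of stem cells, megakaryocytes and red cells that bind the letters AGATAA, and E proteins, which drive lymphoid genes, bind CAGGTG.

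Promoters of 3 genes are shown because these genes were called and their promoters hold the letters AGATAA. Each runs from 250 bases before to 50 bases after the start of the gene in RefSeq (GRCm38.p6), 5′ to 3′ on the strand of the gene, with AGATAA or its reverse complement TTATCT in capitals. Pf4 lies at chr5:90772185-90772484 on the plus strand, Gp5 at chr16:30310732-30311031 on the minus strand and Dntt at chr19:41029025-41029324 on the plus strand. The letters start at position 37 in Pf4, at -93 and -77 in Gp5 and at -112 in Dntt, counted from the start of the gene as position 1.
Pf4: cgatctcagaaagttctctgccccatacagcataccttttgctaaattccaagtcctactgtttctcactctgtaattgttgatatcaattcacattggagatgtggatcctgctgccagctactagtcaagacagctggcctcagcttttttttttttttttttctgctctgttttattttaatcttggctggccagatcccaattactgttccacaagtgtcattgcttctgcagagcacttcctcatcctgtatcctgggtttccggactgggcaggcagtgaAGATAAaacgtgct
Gp5: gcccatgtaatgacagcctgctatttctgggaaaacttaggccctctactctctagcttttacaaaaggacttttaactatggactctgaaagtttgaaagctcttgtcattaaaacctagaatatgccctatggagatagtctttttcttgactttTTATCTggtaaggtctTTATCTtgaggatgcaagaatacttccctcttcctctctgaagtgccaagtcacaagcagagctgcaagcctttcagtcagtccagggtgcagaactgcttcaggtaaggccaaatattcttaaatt
Dntt: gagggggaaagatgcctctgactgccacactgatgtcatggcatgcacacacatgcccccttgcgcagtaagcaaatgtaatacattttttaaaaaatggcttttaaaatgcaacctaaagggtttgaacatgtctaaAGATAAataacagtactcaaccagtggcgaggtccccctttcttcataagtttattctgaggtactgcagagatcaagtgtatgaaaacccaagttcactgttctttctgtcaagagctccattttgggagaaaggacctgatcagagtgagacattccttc

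Of the genes tested, 7727 had a promoter in the RefSeq table, and 6.17% of these promoters held AGATAA on either strand. The share was 6.78% (8 of 118) among genes higher in HPC-1 and 13.3% (6 of 45) among genes lower in HPC-1. Among the lower megakaryocyte genes 2 of 12 promoters held it, those of Pf4 and Gp5. CAGGTG or its reverse complement CACCTG was in 15.9% of all promoters, in 19.5% (23 of 118) among higher genes and in 13.3% (6 of 45) among lower genes. These shares rest on few promoters and are a description only.

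A library held 3551908 to 8492759 counts (median 5623613), so a count of 0 allows up to 0.353 to 0.845 CPM (CPM being a library's counts scaled to a common total, taken at 3 counts, counting error only). Genes with at least 1 count numbered 12720 ± 1377 (SD, n = 15) in HPC-1 libraries and 11500 ± 2794 (SD, n = 13) in HPC-2 libraries. HPC-2 replicates 1 and 2 at 16 weeks stood apart, with 4903 and 7563 genes detected, while every other library had more than 10000. HPC-2 16 weeks replicate 2 also held 9375 CPM of Cd74 and 2133 CPM of C1qb, genes of antigen-presenting cells and macrophages, against at most 577 and 48.6 CPM in the other 27 libraries. HPC-1 replicates 3 at 8 and 10 weeks had nearly the same counts, with a chi-square per degree of freedom of 2.18. HPC-1 13 weeks replicate 2 was as close (2.04) to a steady-state library labelled HPC-2. Replicates of 1 group were at 35.6 or more. These pairs differed by more than sampling noise and each library was counted. Cd3e, a marker of T cells, had no count in any of the 28 libraries, while Cd3d, another, had counts in 6 of 15 HPC-1 and 2 of 13 HPC-2 libraries, up to 5.07 and 1.91 CPM. In bulk RNA, more cells with a gene and more of its RNA per cell cannot be told apart.

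**Figure D1:**
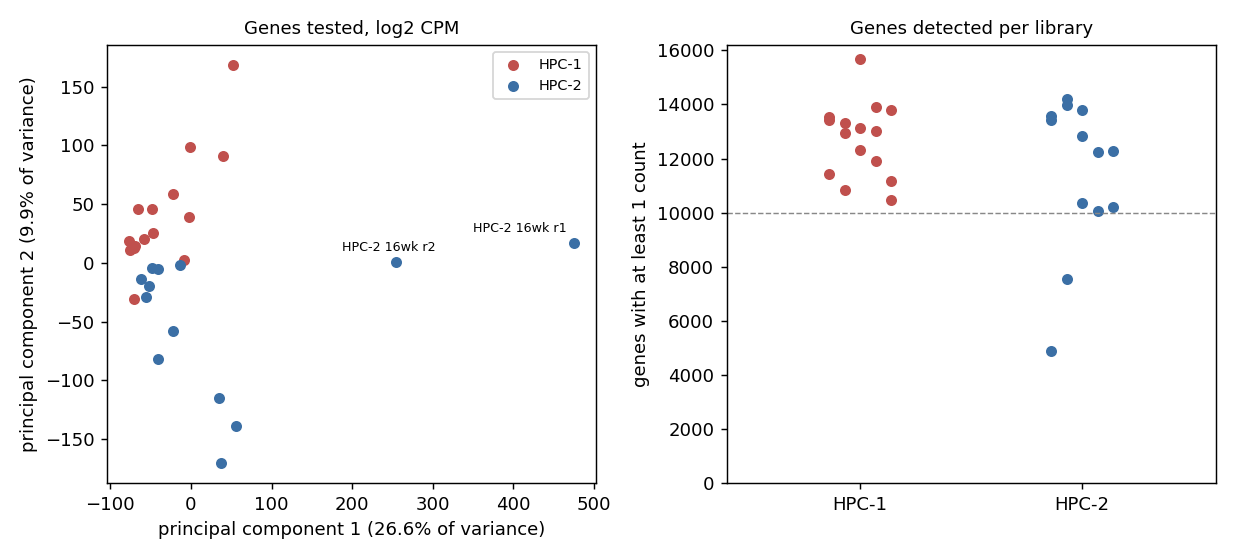
Left, the 15 HPC-1 (red) and 13 HPC-2 (blue) libraries on the first principal components of log2 CPM over the genes tested. Right, genes with at least 1 count per library, where HPC-2 replicates 1 and 2 at 16 weeks lie under 10000 and also lie apart on the left.

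HPC-1 differed from HPC-2 in genes of lymphoid and multipotent progenitors, which were higher in HPC-1, and in genes of megakaryocytes and platelets, which were lower. Of 10155 genes tested, 221 were called at an adjusted p under 0.05 (2.18%), 164 of them higher (1.61%) and 57 lower (0.561%) in HPC-1. The test was the edgeR quasi-likelihood F test on counts with week as a block, adjusted by the Benjamini-Hochberg procedure over all genes tested. The log2 fold change is HPC-1 over HPC-2. Its median over all genes was 0.14, with 5995 of the 10155 genes positive. With another scaling (RLE) the median was 0.01, so changes and counts of signs are read against a shift of that size. In 27 genes (0.266%) no HPC-1 library overlapped any HPC-2 library, 21 with every HPC-1 library above and 6 with every one below, and 26 of the 27 were called. In 206 of the 221 called genes the difference had the same sign in each of the 5 weeks. These genes were chosen on the same libraries, so that count adds no separate support. Without HPC-2 16 weeks replicate 1, 215 genes were higher and 86 lower. Without both low libraries 264 were higher and 121 lower of 10607 tested, with 201 of the 221 among them. More genes were called in that fit, so list counts from it are read beside these. Without the near-identical HPC-1 pair 130 were higher and 42 lower, and of 49 genes followed singly and tested there Cpa3, Gata1, Ccnd3, Tek, Rtp4, Clec12a and Top2a were no longer called (adjusted p of 0.0627 to 0.0867, edgeR). Without HPC-1 13 weeks replicate 2, 143 were higher and 44 lower.

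**Figure D2:**
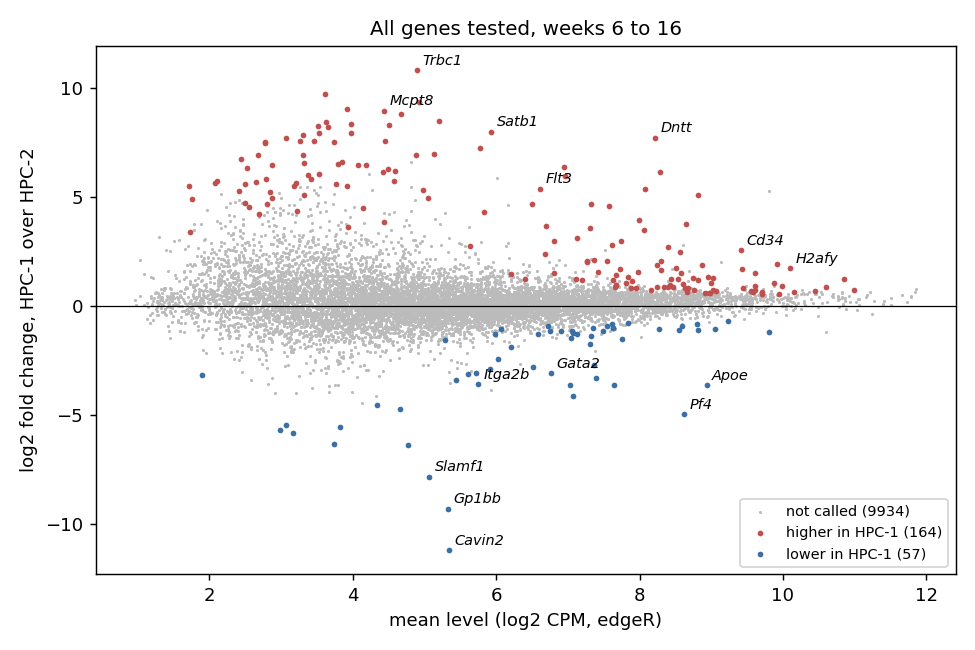
Each point is 1 of the 10155 genes tested, with its mean level (log2 CPM) and its log2 fold change, HPC-1 over HPC-2. The 164 genes higher in HPC-1 are red and the 57 lower are blue. Lymphoid genes such as Dntt and Flt3 lie above 0 and platelet genes such as Pf4 and Gp1bb below it.

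Levels are given in CPM, and where 3 values stand together they are the lowest, the median and the highest library of a population. Slamf1, the gene of CD150, was at 0, 0 and 25.2 CPM in HPC-1 and at 26.8, 69.7 and 132 CPM in HPC-2. The populations did not overlap, and 4 of 15 HPC-1 libraries had any count (log2 fold change -7.84, SE 1.36, adjusted p = 0.000745, edgeR). Cd48 was at 387, 998 and 1380 CPM in HPC-1 and at 136, 249 and 795 CPM in HPC-2, so that both carried it, and HPC-1 had more (1.71, SE 0.31, adjusted p = 0.00125). The Slamf1 and Cd48 levels go against the shared CD48-CD150+ gate of the labels and with the usual definition of both populations. They are no finding beyond the sort.

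Of the other LSK markers, Kit, the stem cell factor receptor, was at 44.0, 132 and 175 CPM in HPC-1 and at 0, 123 and 379 CPM in HPC-2, and was not called (-0.14, SE 0.52, adjusted p = 0.974). Ly6a, the gene of Sca-1, was at 138, 235 and 453 CPM in HPC-1 and at 0, 81.4 and 266 CPM in HPC-2. The ranges overlapped, and Ly6a was called (2.05, SE 0.50, adjusted p = 0.0203), but not without HPC-2 8 weeks replicate 3 or HPC-2 13 weeks replicate 3 (adjusted p up to 0.0546). It was also not called over weeks 6 to 13 alone (0.103), with voom (0.0762), with no week term (0.172) or with the left-out libraries put back (0.218). Blocking by week and replicate number lost the call too (adjusted p = 0.152, edgeR). Cd34, a sialomucin of progenitors that is low on long-term stem cells, was at 482, 1058 and 1620 CPM in HPC-1 and at 0, 175 and 390 CPM in HPC-2. No library overlapped (2.55, SE 0.48, adjusted p = 0.0019). Flt3, the receptor of FLT3 ligand and a mark of lymphoid-primed progenitors, was at 90.2, 154 and 306 CPM in HPC-1 and at 0, 1.40 and 73.7 CPM in HPC-2. It had counts in 8 of 13 HPC-2 libraries, and none reached the HPC-1 range (5.37, SE 1.06, adjusted p = 0.00301).

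Lymphoid priming genes were higher in HPC-1. Of 39 genes on the list 21 passed the filter on low counts, and 10 of those were higher and none lower, with a median log2 fold change of 1.41 against 0.14 over all genes. Without the low libraries 12 were higher and 1 lower of 25 tested, beside 264 and 121 of all 10607 genes in that fit. A gene that passed the filter through HPC-1 alone had to differ, so the share of 47.6% is read only beside the 2.18% of all genes. Dntt, which encodes the terminal transferase that adds bases at antigen receptor joints, was at 151, 438 and 1136 CPM in HPC-1 and at 0, 0 and 31.8 CPM in HPC-2. Every HPC-1 library had counts and 5 of 13 HPC-2 libraries did, without overlap (7.72, SE 1.08, adjusted p = 4.35e-05). Satb1, a chromatin organiser of developing lymphocytes, was at 5.46, 111 and 186 CPM in HPC-1 and at 0, 0 and 7.66 CPM in HPC-2. A single HPC-1 library, of 13 weeks, reached down into the HPC-2 range (8.01, SE 1.00, adjusted p = 9.36e-06).

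Cd27, a receptor of the tumour necrosis factor family, was at 136, 213 and 327 CPM in HPC-1 and at 23.3, 59.7 and 165 CPM in HPC-2 (2.00, SE 0.24, adjusted p = 5.52e-06). It was the smoothest of these differences, being present in every library of both populations. Ly6d, a surface protein of early B cell progenitors, was at 0, 32.6 and 87.6 CPM in HPC-1, with counts in 12 of 15 libraries, and at 0, 0 and 2.05 CPM in HPC-2, with counts in 2 of 13 (8.30, SE 1.21, adjusted p = 7.79e-05). The calls of these lymphoid genes held in each fit that left out 1 library and tested the gene. Cd79b, a B cell receptor component on the list for mature B cells, was at 31.7, 102 and 165 CPM in HPC-1 and at 0, 57.7 and 117 CPM in HPC-2. The summed markers of mature B and plasma cells, 9 genes, were at 40.9 to 190 CPM in HPC-1 and 0 to 124 CPM in HPC-2. Summed markers of T and NK cells, 10 genes, were at 0 to 52.6 CPM in HPC-1 and 0 to 1.91 CPM in HPC-2, with 4 of 15 and 10 of 13 libraries at 0. The part of these cells in the lymphoid values was not tested.

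**Figure D3:**
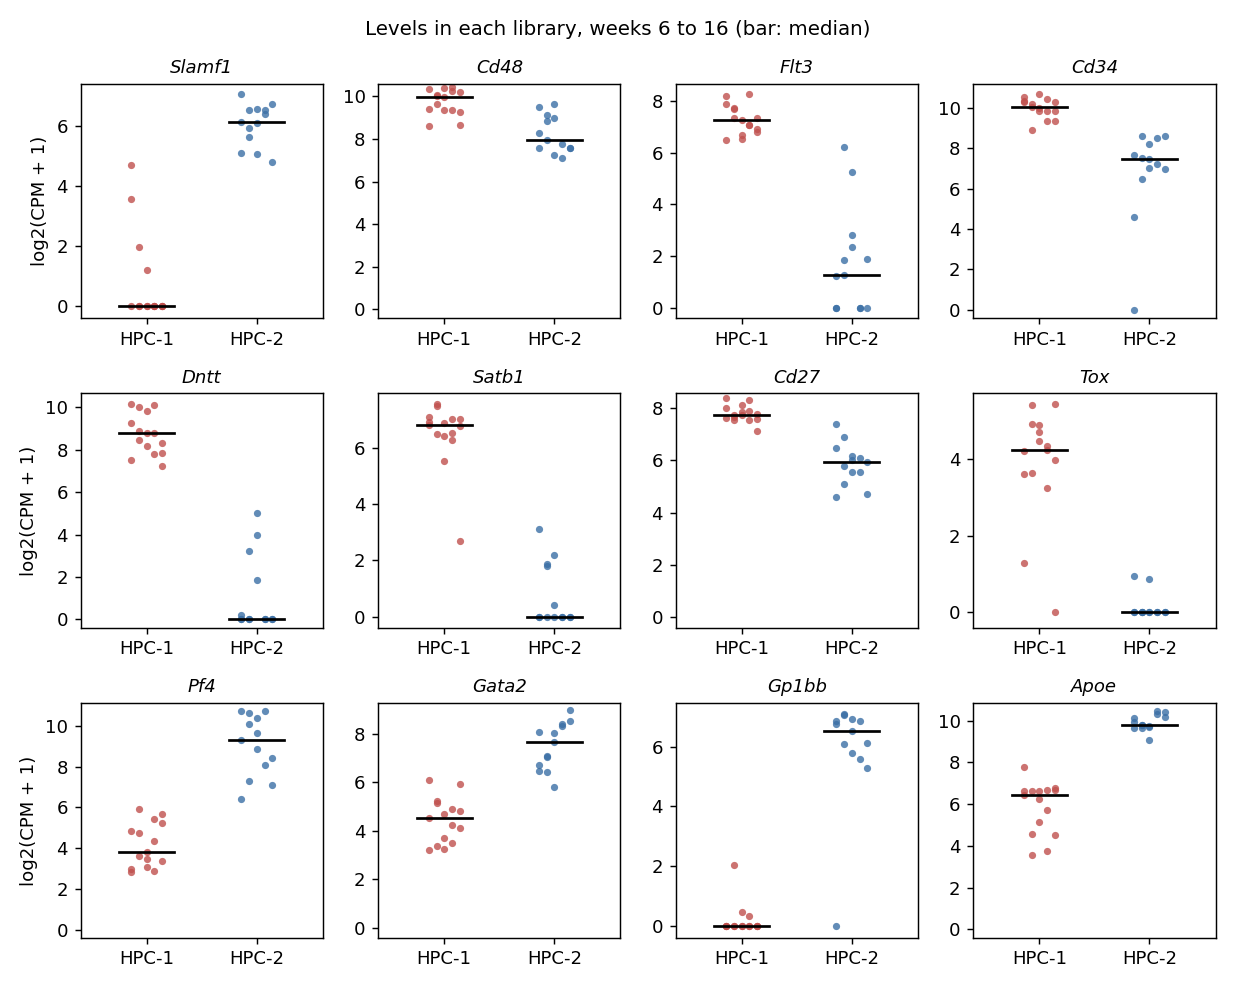
Levels of 12 genes as log2(CPM + 1) in each of the 15 HPC-1 (red, left) and 13 HPC-2 (blue, right) libraries of weeks 6 to 16, with the median as a bar. Slamf1, Pf4 and Apoe lie lower in every HPC-1 library than in any HPC-2 library, and Flt3, Cd34 and Dntt lie higher in every one.

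Genes of multipotent progenitors were higher in HPC-1. Of 14 tested among 16, 10 were higher and none lower in HPC-1 (71.4%, beside 2.18% of all genes called). All 14 had a positive log2 fold change, beside 5995 of all 10155 genes, and the median was 2.88. Some genes of the list, such as Cd27 and Flt3, are also on the lymphoid list. A gene that passed the filter through HPC-1 alone had to differ here too, so the share is read only beside that of all genes. Emb, which encodes embigin, a membrane partner of lactate transporters, was at 437, 578 and 957 CPM in HPC-1 and at 0.658, 48.9 and 391 CPM in HPC-2 without overlap (3.77, SE 0.49, adjusted p = 1.45e-05). Wfdc17, a small secreted protein of myeloid cells, was at 53.1, 122 and 753 CPM in HPC-1 and at 0, 1.75 and 20.9 CPM in HPC-2. Again no library overlapped (5.96, SE 0.97, adjusted p = 0.000336). Plac8, a small cysteine-rich protein of progenitors, was high in both populations. It was at 1164, 1970 and 4791 CPM in HPC-1 and at 350, 851 and 3114 CPM in HPC-2, with wide overlap (1.23, SE 0.29, adjusted p = 0.016). Plac8 was not called over weeks 6 to 13 alone (adjusted p = 0.118, edgeR), with no week term (0.0786) or with the left-out libraries put back (0.111).

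The remaining genes of smallest p that were higher in HPC-1 had varied roles. H2afy, the gene of the histone variant macroH2A1, was at 976, 1538 and 2086 CPM in HPC-1 and at 273, 421 and 814 CPM in HPC-2. It was high in both populations and did not overlap (1.74, SE 0.16, adjusted p = 9.57e-08). Ramp1, an accessory protein of the receptor for calcitonin gene-related peptide, was at 590, 1214 and 2288 CPM in HPC-1 and at 170, 401 and 686 CPM in HPC-2, overlapping at the edges (1.91, SE 0.22, adjusted p = 2.86e-06).

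Others were close to absent in HPC-2. Atp8b4, a gene of the lipid flippase family, was at 0.166, 28.9 and 146 CPM in HPC-1 and at 0, 0 and 1.12 CPM in HPC-2, where 3 of 13 libraries had counts (9.35, SE 0.97, adjusted p = 4.74e-07). Tox, a DNA-binding protein of T cell development, was at 0, 17.7 and 42.2 CPM in HPC-1 and at 0, 0 and 0.919 CPM in HPC-2 (8.28, SE 1.06, adjusted p = 1.45e-05). Cox6a2, a cytochrome oxidase subunit best known from muscle, was at 6.65, 30.9 and 102 CPM in HPC-1 and had counts in 1 of 13 HPC-2 libraries, at 5.67 CPM (8.82, SE 1.14, adjusted p = 1.45e-05). For these low genes the fitted fold depends on few HPC-2 counts. Ighv1-77, an immunoglobulin heavy chain segment, had 3 counts in all HPC-2 libraries together and a median of 15.5 CPM in HPC-1. Its summed level was 684-fold higher in HPC-1 (95% counting interval 234 to 3318, adjusted p = 2.08e-06, edgeR). Close relatives of the segment can take its reads, which makes this value uncertain.

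Mast cell and basophil genes split by gene. Of 10 tested among 24, 3 were higher in HPC-1 and 1 lower (40%, beside 2.18% of all genes called), with a median of 1.31. A gene that passed the filter through 1 population alone had to differ. Mcpt8, a protease of basophils, was at 0, 28.1 and 91.6 CPM in HPC-1 and at 0, 0 and 2.93 CPM in HPC-2, with counts in 14 of 15 and 2 of 13 libraries (8.96, SE 1.17, adjusted p = 1.68e-05). Hdc, which makes histamine, had a median of 9.29 CPM in HPC-1 and 0 in HPC-2 (5.08, SE 1.30, adjusted p = 0.0308), and Cpa3, the mast cell carboxypeptidase, medians of 291 and 110 CPM (1.34, SE 0.36, adjusted p = 0.04). Hdc lost its call in 6 and Cpa3 in 17 of the 28 fits that left out 1 library, and Hdc lost it without the low libraries. The lower member was Gata2, given below with the megakaryocyte genes.

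Granulocyte and monocyte genes had positive log2 fold changes in 20 of 23 tested among 30 (median 1.77), but 2 were called (8.7%, beside 2.18% of all genes). Prtn3, the proteinase 3 of neutrophil granules, was at 243, 669 and 878 CPM in HPC-1 and at 0, 63.1 and 453 CPM in HPC-2 (2.50, SE 0.55, adjusted p = 0.00931). Clec12a, an inhibitory lectin receptor of myeloid cells, had medians of 273 CPM in HPC-1 and 0 in HPC-2 (4.61, SE 1.22, adjusted p = 0.0386) and lost its call in 18 of 28 fits. Ctsg, the granule protease cathepsin G, had medians of 355 and 3.86 CPM (3.95, SE 1.21, adjusted p = 0.0988), and Csf3r, the receptor of granulocyte colony-stimulating factor, 39.9 and 0.173 CPM (3.68, SE 1.10, adjusted p = 0.0853). Neither passed, but Ctsg did without the low libraries (adjusted p = 0.00861, edgeR). The list summed to 2835, 4508 and 12130 CPM in HPC-1 and 929, 1828 and 10476 CPM in HPC-2. Its highest sums were in the near-identical HPC-1 libraries of 8 and 10 weeks and in HPC-2 16 weeks replicate 2. Without the low libraries 7 of 24 members were higher, beside 264 of all 10607 genes in that fit. Summed markers of mature neutrophils, 9 genes, were at 13.3 to 3701 CPM in HPC-1 and 0 to 5823 CPM in HPC-2, and their part in these values was not tested.

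Of 12 dendritic cell genes tested among 17, Flt3 alone was called (8.33%, beside 2.18% of all genes), with a median of 1.27 over the 12. Irf8, a transcription factor of dendritic cells and monocytes, had medians of 19.6 CPM in HPC-1 and 0 in HPC-2 and was not called (4.09, SE 1.90, adjusted p = 0.424). The list summed to 1305 to 2468 CPM in HPC-1 and 498 to 22303 CPM in HPC-2. The top value was HPC-2 16 weeks replicate 2, the library high in Cd74 and C1qb. Without it and the other low library 2 of 12 members were higher, with a median of 1.06, beside 264 of all 10607 genes.

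Megakaryocyte and platelet genes were lower in HPC-1. Of 34 tested among 44, 14 were lower and none higher (41.2%, beside 0.561% lower among all genes). Of the 34, 30 had a negative log2 fold change, and the median was -2.27. A gene that passed the filter through HPC-2 alone had to differ, so the share is read only beside that of all genes. The sum of the list was at 2626, 3188 and 3874 CPM in HPC-1 and at 5110, 8865 and 10934 CPM in HPC-2, without overlap. Without the low libraries 25 of 38 tested members were lower, beside 121 of all 10607 genes in that fit. Pf4, the platelet chemokine whose promoter is printed above, was at 6.02, 13.2 and 59.9 CPM in HPC-1 and at 84.0, 626 and 1692 CPM in HPC-2. Counts were present in every library and the ranges stood apart (-4.96, SE 0.62, adjusted p = 9.36e-06).

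The genes of the platelet receptor for von Willebrand factor moved the same way. Gp1bb, the beta chain of glycoprotein Ib, had counts in 3 of 15 HPC-1 libraries, up to 3.06 CPM, and was at 0, 91.5 and 136 CPM in HPC-2 (-9.31, SE 1.08, adjusted p = 3.53e-06). Gp5, glycoprotein V of the same complex, was at 0, 0.247 and 8.45 CPM in HPC-1 and at 0, 43.0 and 156 CPM in HPC-2 (-6.37, SE 1.10, adjusted p = 0.000698). For both genes the low library HPC-2 16 weeks replicate 1 was the one HPC-2 library at 0, and it alone overlapped HPC-1. Cavin2, a coat protein of caveolae, had 1 count in 1 of 15 HPC-1 libraries and was at 15.6, 88.1 and 191 CPM in HPC-2. It had the smallest p of all genes (adjusted p = 9.73e-12, edgeR), and its summed level in HPC-2 was 7044 times that in HPC-1 (95% counting interval 1264 to 278200).

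Gata2 was at 8.24, 21.9 and 67.2 CPM in HPC-1 and at 54.6, 199 and 495 CPM in HPC-2, overlapping at the edge (-3.08, SE 0.30, adjusted p = 1.89e-07). Gata1 was at 0, 8.10 and 159 CPM in HPC-1, with counts in 9 of 15 libraries, and at 130, 194 and 461 CPM in HPC-2, with counts in all (-3.64, SE 0.95, adjusted p = 0.0365). Both GATA factors were thus lower in HPC-1, but the call of Gata1 was lost in 11 of 28 fits that left out 1 library. F2r, the thrombin receptor PAR1, was at 1.69, 37.6 and 170 CPM in HPC-1 and at 12.8, 230 and 685 CPM in HPC-2 (-2.73, SE 0.44, adjusted p = 0.000314). Itga2b, the integrin CD41, was at 0, 7.19 and 18.9 CPM in HPC-1 and at 0, 62.0 and 391 CPM in HPC-2 (-3.59, SE 0.71, adjusted p = 0.00336). It was not called with libraries blocked by week and replicate number (adjusted p = 0.152, edgeR). Rap1b, a small GTPase that switches on platelet integrins, was high in both, at 358, 528 and 677 CPM in HPC-1 and 671, 1233 and 1819 CPM in HPC-2, and was lower in HPC-1 (-1.21, SE 0.14, adjusted p = 5.22e-06). The list thus held genes near absent from HPC-1, such as Cavin2 and Gp1bb, and genes abundant in both populations, such as Rap1b.

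Outside that list, Apoe, the lipid carrier apolipoprotein E, was at 10.9, 86.4 and 222 CPM in HPC-1 and at 532, 882 and 1431 CPM in HPC-2. The populations stood apart (-3.63, SE 0.34, adjusted p = 9.57e-08). Tuba8, an alpha tubulin, was at 0, 26.9 and 83.4 CPM in HPC-1 and at 197, 288 and 644 CPM in HPC-2, again apart (-3.32, SE 0.51, adjusted p = 0.000176). Prkar2b, a regulatory subunit of protein kinase A, was at 24.7, 90.3 and 193 CPM in HPC-1 and at 150, 229 and 402 CPM in HPC-2 (-1.37, SE 0.22, adjusted p = 0.000382). Smim5, a small membrane protein, had medians of 69.1 and 273 CPM (-1.76, SE 0.24, adjusted p = 3.17e-05). Both of these genes overlapped between populations, and both calls held in each fit that left out 1 library.

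**Figure D4:**
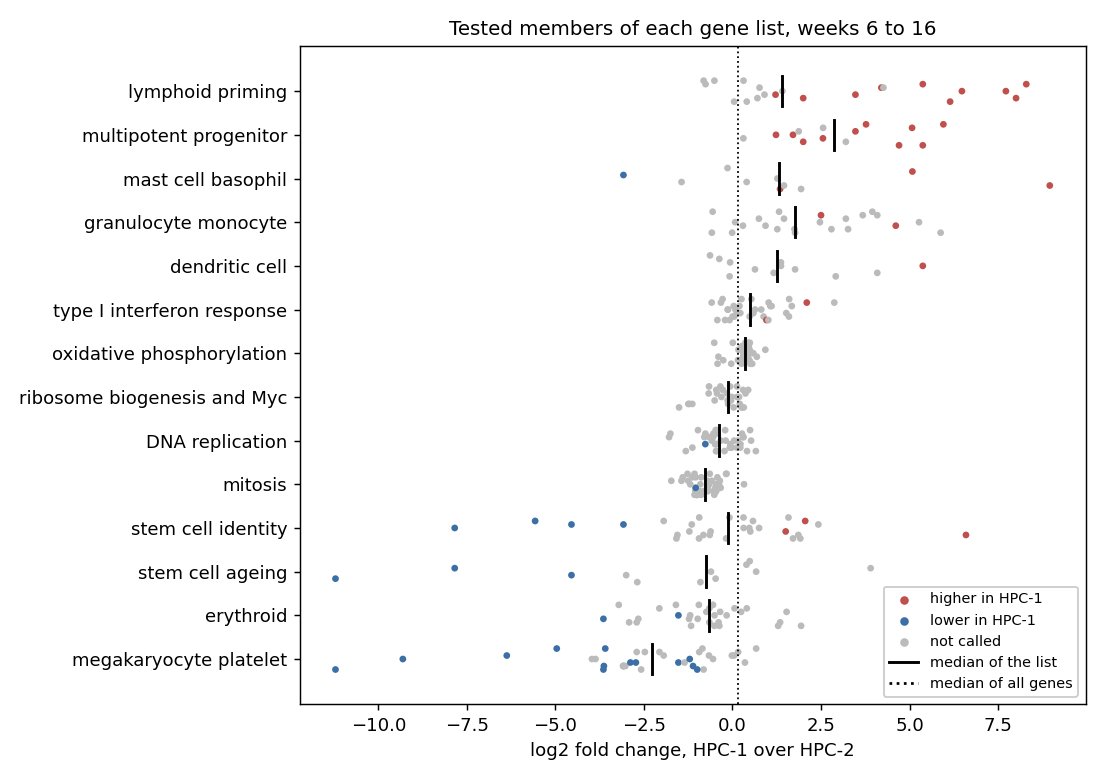
Log2 fold changes, HPC-1 over HPC-2, of the tested members of 14 gene lists, in red where higher in HPC-1, blue where lower and grey where not called, with list medians as bars. The lymphoid and multipotent lists lie right of the median of all genes (dotted, 0.14) and the megakaryocyte list lies left of it.

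Erythroid genes mostly had negative log2 fold changes, but few passed. Of 30 tested among 37, 2 were lower in HPC-1 and none higher (6.67%, beside 2.18% of all genes called). Of the 30, 7 had a positive log2 fold change and the median was -0.65. With RLE scaling 4 were lower. The called members were Gata1 and Gfi1b, a repressor that megakaryocytes and red cells share. Gfi1b was at 1.41, 118 and 287 CPM in HPC-1 and at 91.6, 382 and 676 CPM in HPC-2 (-1.53, SE 0.41, adjusted p = 0.046), and lost its call in 18 of 28 fits and without the low libraries. Blvrb, a heme-pathway reductase, had medians of 64.0 and 168 CPM (-0.98, SE 0.30, adjusted p = 0.0941). Zfpm1, the GATA partner FOG1, had medians of 3.38 and 20.1 CPM (-2.70, SE 0.95, adjusted p = 0.193). Neither was called, but both were without the low libraries (adjusted p of 0.0251 for Blvrb and 0.0189 for Zfpm1, edgeR). Summed markers of mature red cells, 7 genes, were at 8.80 to 230 CPM in HPC-1 and 2.46 to 342 CPM in HPC-2.

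Stem cell identity genes went both ways, with 3 higher and 4 lower in HPC-1 among 30 tested of 41. The share called was 23.3%, beside 2.18% of all genes, and the median was -0.13. The lower members were Gata2, Slamf1, Nupr1 and Tek, and the higher were Procr, Ly6a and Ifitm1. Procr, the protein C receptor used to purify stem cells, was at 0, 17.7 and 59.6 CPM in HPC-1 and had counts in 2 of 13 HPC-2 libraries, up to 19.8 CPM (6.59, SE 1.46, adjusted p = 0.00931). It was not called over weeks 6 to 13 alone (adjusted p = 0.0654, edgeR) or with no week term (0.123). Nupr1, a stress-induced chromatin protein, was at 0, 0 and 26.0 CPM in HPC-1 and at 13.5, 32.5 and 127 CPM in HPC-2 (-4.55, SE 1.00, adjusted p = 0.00873). It was not called with no week term (adjusted p = 0.054, edgeR). Tek, the angiopoietin receptor, had medians of 0 and 17.3 CPM (-5.57, SE 1.41, adjusted p = 0.0287) and lost its call in 7 of 28 fits. Of 12 ageing-associated genes tested among 30, Cavin2, Slamf1 and Nupr1 were lower and none was higher (25% called). Aldh1a1, a retinaldehyde dehydrogenase on that list, had medians of 7.45 and 44.6 CPM and was not called (-2.69, SE 0.92, adjusted p = 0.17). Without the low libraries 5 stem cell identity genes were higher and 8 lower of 34, and 5 ageing-associated genes were lower of 15. Over all genes 264 were higher and 121 lower of 10607 in that fit.

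Cell division genes mostly had small negative log2 fold changes, and few were called. Of 40 mitosis genes, all tested, 39 had a negative log2 fold change (median -0.77) and 2 were called lower (5%, beside 2.18% of all genes called). Top2a, the topoisomerase that untangles chromosomes, was at 42.5, 170 and 449 CPM in HPC-1 and at 69.9, 333 and 1126 CPM in HPC-2 (-1.04, SE 0.27, adjusted p = 0.0301). Ccna2, cyclin A2, had medians of 142 and 234 CPM (-1.01, SE 0.28, adjusted p = 0.0489). The ranges overlapped widely, and the calls were lost in 7 and 21 of 28 fits. Ccnb2, cyclin B2, at medians of 410 and 592 CPM, was not called (-0.49, SE 0.18, adjusted p = 0.229). The mitosis list summed to 1904, 5590 and 7966 CPM in HPC-1 and 6069, 8799 and 15357 CPM in HPC-2.

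Of 40 DNA replication genes 12 were positive (median -0.39) and 1 was called (2.5%, near the 2.18% of all genes). This was Tk1, a thymidine kinase, with medians of 148 and 245 CPM (-0.77, SE 0.18, adjusted p = 0.0196). It was not called without HPC-2 8 weeks replicate 3 (adjusted p = 0.0509), with no filter on low counts (0.0909) or with no week term (0.0676). The call was also lost with the number of genes detected as a covariate (0.0617), over weeks 6 to 13 alone (0.0814) and with libraries blocked by week and replicate number (adjusted p = 0.0857, edgeR). Mcm5, of the replicative helicase, had medians of 72.6 and 147 CPM (-1.13, SE 0.43, adjusted p = 0.255). Among 18 cell cycle regulators tested, 2 were lower and none higher (11.1% called). Cdkn2d, the kinase inhibitor p19Ink4d, was at 20.0, 76.0 and 155 CPM in HPC-1 and at 115, 201 and 347 CPM in HPC-2 (-1.27, SE 0.22, adjusted p = 0.000865). Ccnd3, cyclin D3, had medians of 64.6 and 173 CPM (-1.16, SE 0.31, adjusted p = 0.0452) and lost its call in 17 of 28 fits. An inhibitor and a driver of the cycle were thus both lower. Without the low libraries 5 of 40 mitosis genes and 4 of 18 cycle regulators were lower, beside 121 of all 10607 genes in that fit.

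Growth and metabolism showed no called gene in 3 lists. None of 30 ribosome biogenesis genes, 39 oxidative phosphorylation genes or 17 glycolysis genes tested passed with edgeR, and their medians were -0.11, 0.35 and -0.19. With RLE scaling 1 glycolysis gene was lower. Of the oxidative phosphorylation genes 34 of 39 were positive, beside 5995 of 10155 over all genes. Ndufa4 led them, at 485, 1047 and 1907 CPM in HPC-1 and at 314, 598 and 1254 CPM in HPC-2 (0.93, SE 0.26, adjusted p = 0.0603). Ldha, lactate dehydrogenase A, was at 690, 1180 and 1969 CPM in HPC-1 and at 1266, 1686 and 2251 CPM in HPC-2 (-0.44, SE 0.14, adjusted p = 0.104). Neither was called.

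Of 34 interferon-response genes tested among 40, 2 were higher in HPC-1 and none lower (5.88%, beside 2.18% of all genes called). The median was 0.51. Ifi27 was at 292, 434 and 532 CPM in HPC-1 and at 100.1, 267 and 401 CPM in HPC-2 (0.96, SE 0.20, adjusted p = 0.00656). It was not called with libraries blocked by week and replicate number (adjusted p = 0.0507, edgeR) or with the left-out libraries put back (0.0783). Rtp4 had medians of 213 and 66.2 CPM (2.10, SE 0.57, adjusted p = 0.046) and lost its call in 23 of 28 fits. Of 18 MHC class I and immunoproteasome genes 1 was called (5.56%). This was Psmb8, a proteasome subunit induced by interferon, which was higher (0.53, SE 0.14, adjusted p = 0.0386), at medians of 927 and 734 CPM. It lost the call in 21 of 28 fits and with RLE scaling. Without the low libraries 1 member of that list was higher and 4 were lower of 18, beside 264 and 121 of all 10607 genes. Of 19 immediate early genes 1 was called (5.26%). Zfp36, which speeds decay of inflammatory messages, was higher, at 133, 296 and 1597 CPM in HPC-1 and 38.3, 221 and 972 CPM in HPC-2 (1.17, SE 0.25, adjusted p = 0.00783). It was not called with no week term (adjusted p = 0.475, edgeR). The median of that list was 0.08, and -0.05 with RLE scaling.

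Receptor and adhesion genes included called members in both directions. Cd9, a tetraspanin abundant on platelets, was at 119, 272 and 353 CPM in HPC-1 and at 171, 765 and 964 CPM in HPC-2 (-1.11, SE 0.22, adjusted p = 0.00299). It was not called with libraries blocked by week and replicate number (adjusted p = 0.0605, edgeR). Cd9 and Itga2b were the 2 lower members among 28 tested of the adhesion list (10.7% called in either direction, beside 2.18% of all genes). Il2rg, the common gamma chain of lymphoid cytokine receptors, was at 64.1, 178 and 302 CPM in HPC-1 and at 32.6, 77.6 and 175 CPM in HPC-2 (1.22, SE 0.26, adjusted p = 0.00586). With Flt3 it made 2 higher cytokine receptors, and Tek 1 lower, among 31 tested (9.68% called). Of 47 lineage transcription factors tested, Satb1 and Ets1 were higher and Gata2, Gata1 and Gfi1b lower (10.6% called). Ets1, a factor of lymphocytes, had medians of 5.75 CPM in HPC-1 and 0 in HPC-2 (4.20, SE 1.08, adjusted p = 0.032) and lost its call in 9 of 28 fits and without the low libraries. In that fit 7 factors were higher and 6 lower of 52 tested, beside 264 and 121 of all 10607 genes. None of 5 imprinted genes tested was called.

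Within single weeks the number of called genes varied widely. Within weeks 6, 8, 10 and 13, 1, 11, 2 and 51 genes were higher in HPC-1 (0.00985%, 0.108%, 0.0197% and 0.502%) and 4, 3, 3 and 4 were lower (0.0394%, 0.0295%, 0.0295% and 0.0394%). Within week 16, 1270 were higher (12.5%) and 34 lower (0.335%). Week 16 holds both HPC-2 libraries with few genes detected, and without them 198 genes were called there, with 1 HPC-2 library left, whose spread is taken from the other groups. The other weeks, whose spread is estimated in the same fit, then had 13, 115, 24 and 485 called genes.

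Pf4 had mean levels of 12.9, 25.3, 9.22, 32.3 and 30.6 CPM in HPC-1 at 6, 8, 10, 13 and 16 weeks and of 1205, 1018, 1189, 204 and 238 CPM in HPC-2. Its level was lower in HPC-1 in every week, by a log2 fold change of -6.59 at 6 weeks and -2.73 at 16 weeks. Dntt had means of 666, 632, 860, 231 and 246 CPM in HPC-1 and of 3.66, 0, 5.04, 0 and 10.6 CPM in HPC-2. Gata2 had means of 22.7, 17.8, 9.39, 54.8 and 23.3 CPM in HPC-1 and of 80.2, 337, 140, 416 and 217 CPM in HPC-2. Cd48 had means of 937, 1028, 779, 835 and 999 CPM in HPC-1 and of 567, 205, 552, 162 and 197 CPM in HPC-2. All of these genes kept their direction in each week.

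Change of the difference over weeks 6 to 16 was tested as a slope per doubling of weeks. No gene was called with edgeR (0%), with 868 genes at an unadjusted p under 0.05 and a smallest adjusted p of 0.162, while DESeq2 called 238. For Pf4 the slope was 2.78 per doubling (SE 0.87, adjusted p = 0.398), so that the gap between populations was narrower at later weeks in these libraries without passing the test. For Dntt it was -2.17 (SE 1.49, adjusted p = 0.781), for Flt3 -2.60 (SE 1.49, adjusted p = 0.663) and for Cd48 1.23 (SE 0.52, adjusted p = 0.521). None of these slopes passed, and the count of called slopes depended on the tool.

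**Figure D5:**
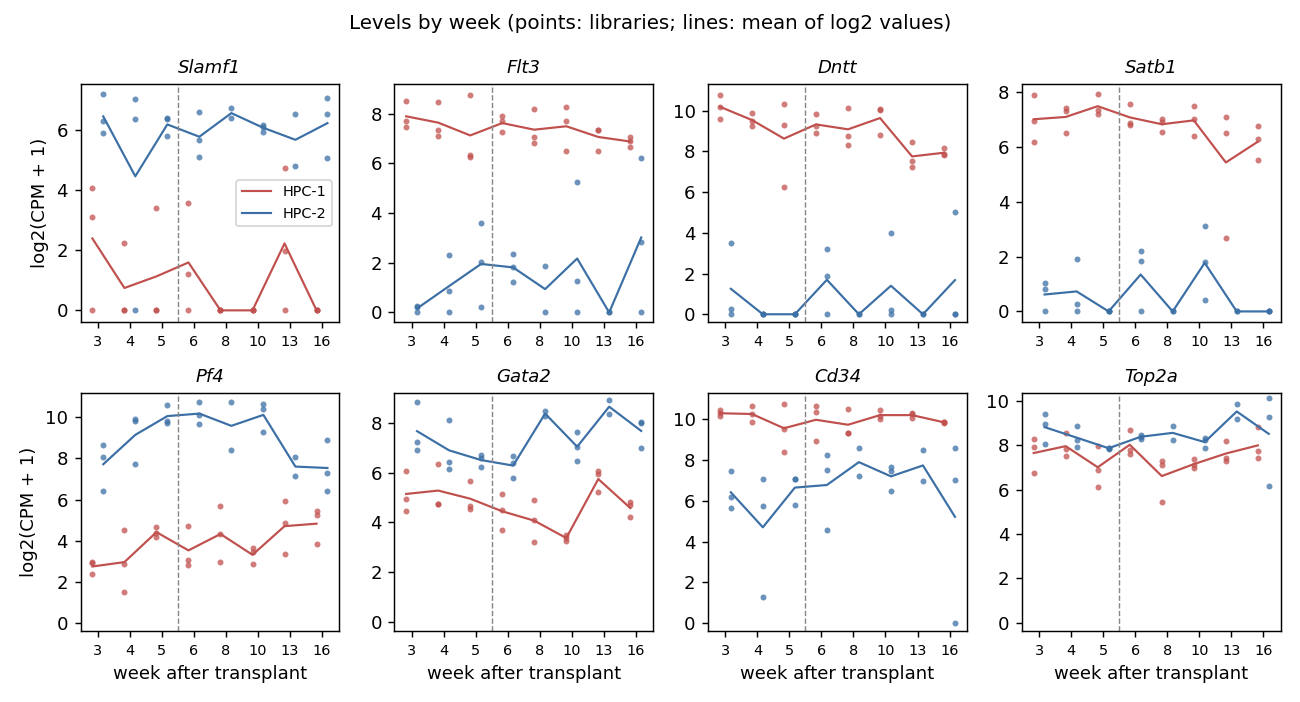
Levels of 8 genes as log2(CPM + 1) by week after transplant in HPC-1 (red) and HPC-2 (blue), with lines through the mean of each week and a dashed line between weeks 5 and 6. Dntt and Flt3 lie above and Pf4 and Gata2 below in HPC-1 at each week, and the mean Pf4 level of HPC-2 is lower at 13 and 16 weeks than at 6 to 10 weeks.

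The earlier weeks 3, 4 and 5, with 9 libraries of each population and no library in common, were read from 1 fit of both periods. The periods share the filter on low counts, the scaling and the estimates of spread of that fit, so their calls are not fully separate. One HPC-2 library of 3 weeks bears the treatment label of untreated mice, and its title was followed. Of the 221 genes called over weeks 6 to 16, 218 had the same sign at weeks 3 to 5. Of these, 115 were also called there in the same direction, 84 higher and 31 lower. The share of all genes with the same sign in both periods was not counted. In the fit of both periods 12276 genes were tested and 304 (2.48%) were called at weeks 3 to 5, 212 higher (1.73%) and 92 lower (0.749%), so that the shared calls were 52.0% of the later and 37.8% of the earlier list. H2afy was at 891, 1712 and 2577 CPM in HPC-1 and at 235, 352 and 697 CPM in HPC-2 at weeks 3 to 5 (2.24, SE 0.21, adjusted p = 2.88e-09). Pf4 was at 1.84, 6.86 and 24.8 CPM in HPC-1 and at 83.1, 853 and 1543 CPM in HPC-2 (-5.79, SE 0.68, adjusted p = 3.95e-07). Dntt was at 75.8, 770 and 1776 CPM in HPC-1 and at 0, 0 and 10.5 CPM in HPC-2 (10.69, SE 1.37, adjusted p = 1.23e-06). None of these 3 genes overlapped between populations in the earlier weeks either.

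The difference between periods was tested directly as an interaction. No gene was called with edgeR (0%), with 665 at an unadjusted p under 0.05 and a smallest adjusted p of 0.0504, while DESeq2 called 31. For Pf4 the difference changed by 0.80 between periods (95% interval -0.72 to 2.33) and for Apoe by -0.03 (-1.17 to 1.11). For Dntt it changed by -3.02 (-5.93 to -0.11, adjusted p = 0.901, edgeR) and for Cd48 by 0.96 (0.09 to 1.84, adjusted p = 0.901, edgeR). The last 2 intervals leave out 0 for the single gene, and neither gene passed over all genes.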

How the data were processed

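The authors deposited unnormalised counts for 53465 gene entries in 95 libraries, of which 3433 had no symbol. Per the submitters' processing notes, the authors used Trimmomatic 0.36, HISAT2 2.0.5, Picard and featureCounts, with the builds GRCm38 and mm10. The strand setting is not given in the sources used here, so reads of a gene and an overlapping antisense gene cannot be told apart. Totals of 3551908 to 8492759 counts per library set the precision.

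The 15 HPC-1 and 13 HPC-2 libraries were fitted with edgeR 4.0.16 in R 4.3.3 (filterByExpr, TMM, quasi-likelihood F test), with week as a factor. Adjusted p is by the Benjamini-Hochberg procedure, and calls are under 0.05. The standard error (SE) comes from the F statistic. Slopes and periods were tested as interactions, and single weeks as contrasts of 10 group means. Alternatives used DESeq2 1.42.0, limma 3.58.1 (voom), other filters, scaling and library sets, and leaving out each library. Promoters came from RefSeq (GRCm38.p6) and figures from matplotlib 3.10.9.

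Library names in the deposited counts run consecutively across populations within each week and replicate number. Whether such libraries shared a mouse or a sort is not stated. The correlations of deviations over 13 pairs of the same week and replicate number ran from -0.22 to 0.15, with 2 above 0.1. Low correlations cannot show that libraries were unpaired. The main fit left them unpaired, and the fit blocked by week and replicate number kept 142 of the 221 calls. The named genes are the 10 with the smallest p in each direction among called genes of at least 10 CPM, up to 4 of smallest p per list and the sort markers. Gp5, Plac8, Ifitm1 and the receptor segments of the closing section were named after their values were seen. Some genes that the rule selects are not reported here. The libraries, the 31 gene lists and the tests were chosen with earlier results of these data known.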

Additional observations from a re-analysis of the deposited data

Results flagged for a closer look

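HPC-2 8 weeks replicate 2, which was left out of the comparison, had levels near those of HPC-1. All 10 of the leading genes higher in HPC-1 were above every one of the 13 HPC-2 libraries in it, and 8 of the 10 leading lower genes were below every one. The library was left out for its HPC-1 profile and these genes were chosen without it, so the counts describe that profile and add no support. Dntt was at 599 CPM and Satb1 at 155 CPM in this library, against highest values of 31.8 and 7.66 CPM in HPC-2, and Pf4 was at 19.7 CPM, against a lowest value of 84.0 CPM. Flt3, at 64.2 CPM, was below the highest HPC-2 library (73.7 CPM). Its counts were close to those of HPC-1 5 weeks replicate 1 (chi-square per degree of freedom 3.82).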

How the results depend on the processing

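Both directions of the main comparison kept more higher than lower genes under every alternative run. The counts of higher and lower genes were 608 and 163 with no filter on low counts, 264 and 121 without the libraries of fewer than 10000 genes, 413 and 178 with DESeq2, and 577 and 226 with voom. They were 95 and 32 with both left-out HPC-2 libraries put back, and 948 and 113 as the mean of the 5 weekly differences. Chosen after seeing the data, leaving out the low libraries and the near-identical pair together gave 206 and 95. With a replicate block, which pairs libraries of the same week and replicate number, 134 were higher and 32 lower. Of the 221 genes 142 were among them. Leaving out single libraries gave 127 to 215 higher and 39 to 86 lower genes. Within weeks 6, 8 and 10, no filter gave 20, 64 and 26 called genes, and within week 16 it gave 599. The low libraries left out gave 13, 115, 24, 485 and 198 at weeks 6, 8, 10, 13 and 16, with 1 HPC-2 library left at week 16. RLE scaling gave 9 at week 8 and 27 at week 13, a mean of at least 10 CPM gave 860 at week 16, and the near-identical pair left out gave 75 at week 8 and 3 at week 10. Leaving out single libraries gave 0 to 8, 0 to 104, 1 to 13, 13 to 249 and 481 to 3094 at the 5 weeks (leaving 1 HPC-2 library at 8 or 13 weeks in some fits, assumed to vary like the other groups), with the highest value at week 16 without HPC-2 16 weeks replicate 3 and at week 8 without HPC-1 8 weeks replicate 3. The slope gave 30 called genes with no filter, 238 with DESeq2, and 0 to 6 without single libraries. The period difference gave 58 with no filter, 31 with DESeq2, and 0 to 1 without single libraries. Both gave 0 with the replicate block. The causes were not tested. Of 58 called genes followed singly, 44 kept their call in each single-library fit that tested them (38 were tested in all 28), and 35 in each fit of any kind that tested them (26 were tested in all). Among the calls lost were 14 with the left-out libraries put back, 12 with the replicate block, 12 over weeks 6 to 13 (chosen after seeing the data), 11 with no week term and 11 with the number of genes detected as a covariate. Of 11 genes named as not called, 10 were called under at least 1 alternative. Kit, which was not called, turned positive with the replicate block (0.26) and without HPC-2 16 weeks replicate 3, its log2 fold change running from -0.31 to 0.018 over the fits without single libraries. Depth limits low genes: those with a few counts in 1 population have wide intervals.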

Other observations

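Segments of the antigen receptor loci were higher in HPC-1, an observation made after the values were seen. Of 8 immunoglobulin or T cell receptor segments tested, 6 were higher and none lower, beside 1.61% higher among all genes. Most passed the filter on low counts through HPC-1 alone and so had to differ, and the count supports nothing further. Ighm, the constant region of IgM, was at 231, 506 and 934 CPM (lowest, median and highest library) in HPC-1 and at 0, 2.55 and 229 CPM in HPC-2, without overlap (log2 fold change 6.15, SE 1.14, adjusted p = 0.0015, edgeR). It was not called with the left-out libraries put back (adjusted p = 0.0602, edgeR). Trbc1, a constant region of the T cell receptor beta chain, had counts in 14 of 15 HPC-1 libraries (0, 26.7 and 240 CPM) and in none of the 13 HPC-2 libraries. Its summed level was at least 1238-fold higher in HPC-1, against a floor of 3 counts over all HPC-2 libraries (adjusted p = 2.28e-05, edgeR). Tcrg-C1, of the gamma chain, had counts in 13 of 15 HPC-1 libraries and 1 of 13 HPC-2 libraries (adjusted p = 0.000116, edgeR). The heavy chain segments Ighv1-23 and Ighv1-74 had counts in 13 of 15 HPC-1 libraries each and in 2 and 1 of 13 HPC-2 libraries. Ighv1-74 was not called with no week term (adjusted p = 0.101, edgeR) or with the left-out libraries put back (adjusted p = 0.102, edgeR). Among markers of T and B cells, Cd3d had counts in 6 of 15 HPC-1 and 2 of 13 HPC-2 libraries, Cd79a in 4 and 0, and Cd3e in 0 and 0. The summed T and NK markers reached 52.6 CPM in HPC-1 and 1.91 CPM in HPC-2, and their part in these values was not tested. Constant regions and segments of these loci have near-identical relatives that can share reads, so single segments are uncertain.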
